A study of Saccharomyces cerevisiae with 12 samples.

Results

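The genes described here are the 38 nuclear genes of budding yeast, Saccharomyces cerevisiae, that encode the NADH dehydrogenases of the mitochondrial inner membrane, the subunits of complexes II, III and IV, the subunits of the ATP synthase, and 2 small proteins that inhibit it. They were listed by systematic name and the enzyme they belong to, with earlier results of these data known, and all 38 are among the 5974 open reading frames of the arrays. They comprise 3 NADH dehydrogenases, 4 genes of complex II, 9 of complex III, 7 of complex IV, 13 of the ATP synthase and 2 inhibitors. The complex IV subunits COX5A and COX5B, the cytochromes c and the ATP synthase gene ATP19 were not in the set. The subunits encoded in mitochondrial DNA were not analysed here. The study asked about the part of Ixr1, a transcription factor of the HMG-box family, in the response of yeast to low oxygen. Messenger RNA was measured on 12 arrays, with 2 arrays, lettered A and B, in each of 6 groups. Cells labelled ixr1 null were studied beside wild type cells, both in the laboratory strain background BY4741 from EUROSCARF. Each genotype was sampled after overnight hypoxia, after a short shift to hypoxia, and in air. Synthetic complete medium held 2% glucose, and the growth temperature was 30 C throughout. Overnight hypoxia was produced in anaerobic jars at under 1% oxygen, and only that medium received ergosterol at 20 mg/l and Tween 80 at 0.5%. For the shift, nitrogen was passed for 3 hours through cultures that had reached OD600 0.8 in air. Lack of oxygen, the added sterol and detergent, and the stage of the culture therefore cannot be told apart in the overnight samples.

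In the respiratory chain, NADH dehydrogenases and succinate dehydrogenase (complex II) pass electrons to ubiquinone, the cytochrome bc1 complex (complex III) passes them to cytochrome c, and cytochrome c oxidase (complex IV) hands them to oxygen. Complexes III and IV pump protons, and the ATP synthase lets the protons flow back through its membrane part while its catalytic head makes ATP. Without a proton gradient the enzyme can run backwards and spend ATP, which its inhibitor proteins hold in check. Budding yeast has single-protein NADH dehydrogenases in place of the large complex I of other organisms. On glucose it ferments even in air, and glucose represses many respiratory genes.

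The genes, with their systematic names, are the following. The NADH dehydrogenases are NDI1 (YML120C), NDE1 (YMR145C) and NDE2 (YDL085W). Complex II has SDH1 (YKL148C), SDH2 (YLL041C), SDH3 (YKL141W) and SDH4 (YDR178W). Complex III has COR1 (YBL045C), QCR2 (YPR191W), RIP1 (YEL024W), CYT1 (YOR065W), QCR6 (YFR033C), QCR7 (YDR529C), QCR8 (YJL166W), QCR9 (YGR183C) and QCR10 (YHR001W-A). Complex IV has COX4 (YGL187C), COX6 (YHR051W), COX7 (YMR256C), COX8 (YLR395C), COX9 (YDL067C), COX12 (YLR038C) and COX13 (YGL191W). The ATP synthase has ATP1 (YBL099W), ATP2 (YJR121W), ATP3 (YBR039W), ATP4 (YPL078C), ATP5 (YDR298C), ATP7 (YKL016C), ATP14 (YLR295C), ATP15 (YPL271W), ATP16 (YDL004W), ATP17 (YDR377W), ATP18 (YML081C-A), ATP20 (YPR020W) and TIM11 (YDR322C-A), and its inhibitors are INH1 (YDL181W) and STF1 (YDL130W-A).

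Each value is a radioactive hybridisation signal on a linear scale, and each array averages close to 1. Exact zeros made up 11.8% of all values and 4.82% of the values of the 38 genes. Of the 38, 35 were never at 0 on an array of air or overnight hypoxia, and 25 were never at 0 at all. The array with most zeros was labelled ixr1 null shift array A, with 3489, among them 11 of the 38 genes, and labelled ixr1 null shift array B had 1799, among them 6. The labels do not say whether arrays A and B come from separate cultures. Each p-value rests on the spread between A and B within groups, taken over all 6 groups together, and that spread may be technical. In such bulk RNA a change in every cell and a change in some of the cells cannot be told apart. The probe of IXR1 itself read 9.75 and 8.64 in labelled ixr1 null air, against 8.11 and 7.03 in wild type air. In hypoxia it read 0.608 and 1.13 on the arrays labelled ixr1 null, against 0.441 and 0.399 in wild type. After the shift its arrays overlapped between the genotypes (limma, -0.22 ± 0.43, adjusted p = 0.947). IXR1 was thus not lower on the arrays labelled null in air or in hypoxia. The sources used here do not say what its probe spans, so this does not check the deletion, and every direction between genotypes below rests on the labels. Of the genes that BY4741 lacks in whole or in part, HIS3 and URA3 still read above 0 on all 12 arrays, at 0.0645 to 1.44 and 0.0762 to 0.997. LEU2 read 0 to 0.554. MET17 read 0 to 0.0404, with its positive readings between percentiles 0.7 and 5.7 of their arrays. Of the mating genes, the a-factor gene MFA1 read 0.128 to 4.62 and MFA2 0 to 14.6, the a-cell receptor gene STE2 0 to 1.71, and the alpha-cell genes MF(ALPHA)1 and STE3 0 to 0.527 and 0 to 0.240.

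Of 6 genes read as markers of low oxygen, those that differed did so in both directions. They therefore give no uniform check of the hypoxia labels. DAN1, of the cell wall, read 1.37 and 3.52 in wild type hypoxia, against 0.0674 and 0.0886 in wild type air, and rose in both genotypes (limma, 4.84 ± 0.80 in wild type, adjusted p = 0.00465, and 5.62 ± 0.82 in cells labelled ixr1 null, adjusted p = 0.00376). AAC3, of an ADP/ATP carrier isoform, read 1.08 and 1.20 in labelled ixr1 null hypoxia and 0.267 and 0.347 in wild type hypoxia, and was listed at 0 on all 4 air arrays, so it was not tested. TIR1, another cell wall gene, read 0.0227 and 0.0693 in wild type hypoxia, against 0.791 and 0.886 in wild type air, and fell in both genotypes (limma, -4.32 ± 0.67, adjusted p = 0.00235, and -4.16 ± 0.68 in cells labelled ixr1 null, adjusted p = 0.00435). These 3 genes kept their hypoxia and air readings apart in both genotypes, with TIR1 opposite to DAN1 and AAC3. OLE1, of the fatty acid desaturase, read 0.0697 and 0.212 in wild type hypoxia, against 3.72 and 1.74 in wild type air, and fell (limma, -4.53 ± 0.59, adjusted p = 0.000639), with -1.32 ± 0.60 in cells labelled ixr1 null (adjusted p = 0.219). On the arrays labelled ixr1 null it read 0.362 and 0.451 in hypoxia, against 0.736 and 0.920 in air. The OLE1 readings thus also lay apart in both genotypes, in the direction of TIR1. ANB1, of a translation factor, differed by 0.05 ± 0.51 in wild type (limma, adjusted p = 0.976) and -0.08 ± 0.51 in cells labelled ixr1 null (adjusted p = 0.952). HEM13, of heme synthesis, differed by -0.18 ± 0.48 in wild type (limma, adjusted p = 0.896) and -1.25 ± 0.48 in cells labelled ixr1 null (adjusted p = 0.145). Neither ANB1 nor HEM13 passed the threshold.

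The first question was how overnight hypoxia changed these genes. In wild type cells 6 of the 37 genes tested passed an adjusted p of 0.05, which is 16.2%, beside 11.9% of all probes tested. Subunit genes of the same enzyme went in opposite directions. QCR10 of complex III and ATP1 and ATP5 of the ATP synthase rose, while ATP15 and ATP20 of the ATP synthase and the inhibitor gene INH1 fell. The median difference of the 37 genes was 0.06 on the log2 scale, beside 0.01 over all probes tested, and 20 lay above 0 and 17 (45.9%) below, beside 49.6% of all probes below 0. By direction, 5.09% of all probes rose and 6.84% fell. On normalized values the hypoxia arrays lay wholly above the air arrays for 10 of 37 genes (27%), beside 30.9% of all probes, and wholly below for 7 (18.9%), beside 30%. Among the genes of the chain 1 of 22 passed, and among those of the ATP synthase with its inhibitors 5 of 15. Whether the share of calls differs between these parts was not tested. In cells labelled ixr1 null 4 of 36 genes tested passed, which is 11.1%, beside 12% of all probes tested. There ATP1 and ATP5 rose, and ATP3 and INH1 fell. The median of the 36 genes was -0.65, beside -0.20 over all probes tested, and 24 of them (66.7%) lay below 0, beside 57.5% of all probes. By direction, 6.41% of all probes rose and 5.58% fell. The hypoxia arrays lay wholly above the air arrays for 7 of 36 genes (19.4%), beside 24.2% of all probes, and wholly below for 17 (47.2%), beside 32.9%.

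**Figure D1:**
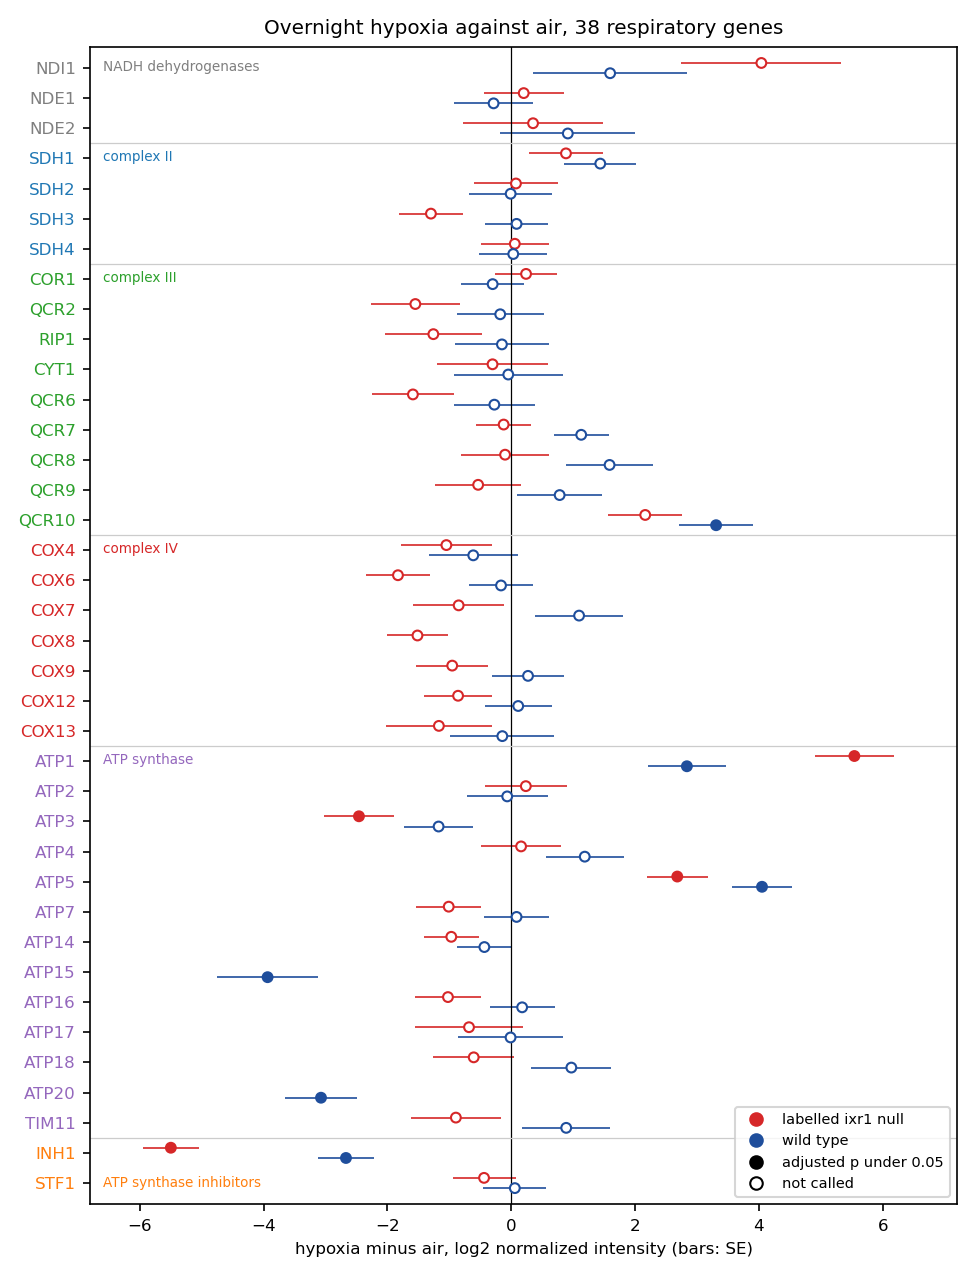
Difference between overnight hypoxia and air for each of the 38 genes, ordered by complex down the page, as the log2 of the quantile normalized signal with the standard error as a bar, in red for cells labelled ixr1 null and in blue for wild type. Filled points passed an adjusted p of 0.05. Most points lie near 0, ATP1 and ATP5 lie far to the right in both genotypes, INH1 lies far to the left in both, and all 7 red points of complex IV lie left of 0.

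The largest rise in wild type cells was that of ATP5, which encodes the oligomycin sensitivity conferring protein that ties the catalytic head of the ATP synthase to its stalk. ATP5 read 3.74 and 3.88 in wild type hypoxia, against 0.260 and 0.231 in wild type air. In cells labelled ixr1 null it read 2.00 and 1.47 in hypoxia, against 0.381 and 0.304 in air. All 4 hypoxia arrays lay above all 4 air arrays. The rise was 4.05 ± 0.49 on the log2 scale (SE), or 16.6-fold, in wild type (limma, adjusted p = 0.000626) and 2.68 ± 0.49, or 6.41-fold, in cells labelled ixr1 null (adjusted p = 0.00731). The second call was lost without labelled ixr1 null air array B (adjusted p = 0.0674) and after centring each array (0.056).

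ATP1 encodes the alpha subunit, part of the catalytic head. It read 3.02 and 2.76 in wild type hypoxia, against 0.619 and 0.267 in wild type air, while the labelled ixr1 null readings were 7.50 and 6.96 in hypoxia, against 0.190 and 0.247 in air. The groups did not overlap in either genotype, and the highest readings were those of labelled ixr1 null hypoxia. The rise was 2.84 ± 0.62, or 7.14-fold, in wild type (limma, adjusted p = 0.0126) and 5.54 ± 0.63, or 46.6-fold, in cells labelled ixr1 null (adjusted p = 0.000456). The wild type call was lost when wild type air array B, wild type hypoxia array A or wild type hypoxia array B was left out, with adjusted p = 0.111, 0.0915 and 0.0728. ATP2, which encodes the beta subunit that alternates with alpha in the head, had hypoxia and air readings that overlapped as deposited in both genotypes, while on normalized values hypoxia lay above air on the arrays labelled ixr1 null. Neither difference of ATP2 passed. It read 4.18 and 3.64 in wild type hypoxia, against 3.93 and 4.10 in wild type air, while the labelled ixr1 null readings were 4.37 and 3.96 in hypoxia, against 4.71 and 3.97 in air.

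ATP3 encodes the gamma subunit, the rotor shaft inside the head. It read 0.535 and 0.567 in labelled ixr1 null hypoxia, against 3.11 and 2.31 in labelled ixr1 null air, a fall of 5.5-fold (-2.46 ± 0.56, limma, adjusted p = 0.0185). In wild type it read 1.34 and 1.30 in hypoxia, against 3.28 and 2.14 in air. The hypoxia arrays lay below the air arrays in both genotypes, but only the difference on the arrays labelled ixr1 null passed the threshold, and the difference between genotypes did not. The call in cells labelled ixr1 null was lost when any 1 of its 4 arrays was left out, with adjusted p = 0.138 and 0.0649 for air arrays A and B, and 0.0646 and 0.091 for hypoxia arrays A and B.

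ATP15 and ATP20 were the subunit genes that fell in wild type. ATP15 encodes the epsilon subunit of the rotor. It read 0.0595 and 0.00943 in wild type hypoxia, against 0.333 and 0.599 in wild type air, while the labelled ixr1 null readings were 0.00805 and 0 in hypoxia, against 1.38 and 0.905 in air. ATP20 encodes subunit g of the membrane part. It read 0.0407 and 0.0430 in wild type hypoxia, against 0.269 and 0.450 in wild type air, while the labelled ixr1 null readings were 0.0387 and 0 in hypoxia, against 0.620 and 0.596 in air. For both genes every hypoxia reading was below every air reading. In wild type the difference was -3.94 ± 0.82 for ATP15 (limma, adjusted p = 0.0115) and -3.07 ± 0.58 for ATP20 (limma, adjusted p = 0.0126). In cells labelled ixr1 null neither was tested, because hypoxia array B held a 0. The readings of ATP20 on both wild type hypoxia arrays and that of ATP15 on array B lay below the 10th percentile of positive readings on their array, so the size of these falls is not fixed. With zeros kept and all values floored at 0.437 the differences were -0.31 for ATP15 and -0.10 for ATP20, with adjusted p = 1 for both. Both calls were also lost without wild type air array B (adjusted p = 0.096 and 0.0961) and without wild type hypoxia array B (0.0965 and 0.105), that of ATP20 without wild type hypoxia array A (0.0716), and that of ATP15 with arrays centred on their medians (0.0741).

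None of the other 8 ATP synthase genes passed in either genotype. These are ATP4, ATP7, ATP14, ATP16, ATP17, ATP18 and TIM11, which encode further stalk, rotor and membrane subunits, and ATP2. ATP16, which encodes the delta subunit of the rotor, read 1.34 and 1.02 in wild type hypoxia, against 0.923 and 0.936 in wild type air, while the labelled ixr1 null readings were 0.700 and 0.750 in hypoxia, against 1.46 and 1.23 in air. As deposited, its hypoxia readings were above its air readings in wild type, where the normalized values overlapped, and below them on the arrays labelled ixr1 null, and neither difference passed.

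INH1, which encodes the inhibitor of ATP hydrolysis by the ATP synthase, fell in both genotypes. INH1 read 0.202 and 0.182 in wild type hypoxia, against 1.18 and 0.924 in wild type air. On the arrays labelled ixr1 null it read 0.0701 and 0.0807 in hypoxia, against 1.62 and 1.90 in air. The 4 hypoxia readings were the lowest of all 12 arrays. The fall was -2.67 ± 0.46, or 6.37-fold, in wild type (limma, adjusted p = 0.00302) and -5.50 ± 0.45, or 45.2-fold, in cells labelled ixr1 null (adjusted p = 9.45e-05). Both calls held under each of 10 alternatives, but both readings of labelled ixr1 null hypoxia were under the 10th percentile of their array, and the size there ran from -5.73 to -1.81 over the alternatives. STF1, which encodes the related protein that also binds and inhibits the enzyme, read 0.986 and 1.24 in wild type hypoxia, against 1.04 and 0.836 in wild type air, while the labelled ixr1 null readings were 0.784 and 1.06 in hypoxia, against 1.23 and 1.19 in air. STF1 differed by 0.06 ± 0.51 in wild type (limma, adjusted p = 0.972) and by -0.44 ± 0.51 in cells labelled ixr1 null (adjusted p = 0.687).

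**Figure D2:**
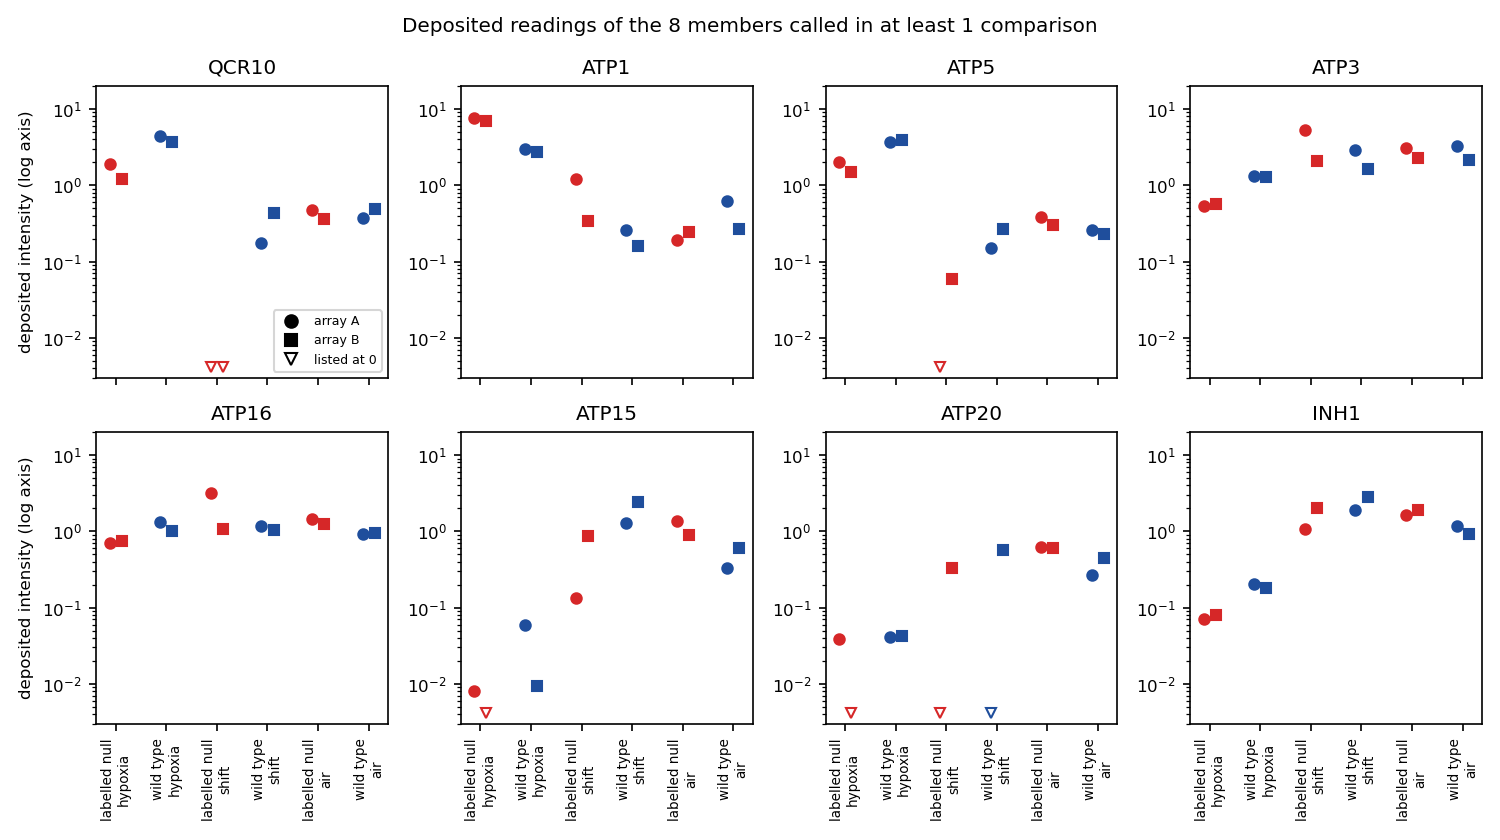
Deposited signal on each of the 12 arrays, on a log axis, for the 8 genes that passed an adjusted p of 0.05 in at least 1 comparison, in red for cells labelled ixr1 null and in blue for wild type, with circles for array A, squares for array B and open triangles for readings listed at 0. ATP5, ATP1 and QCR10 are highest on the hypoxia arrays, INH1 is lowest there, and ATP15 and ATP20 lie below all their air readings on those arrays.

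In complex III the gene that rose was QCR10, which encodes a small subunit at the edge of the complex. It read 4.45 and 3.64 in wild type hypoxia, against 0.375 and 0.482 in wild type air. On the arrays labelled ixr1 null QCR10 read 1.91 and 1.20 in hypoxia, against 0.469 and 0.358 in air. All hypoxia readings exceeded all air readings. The rise was 3.31 ± 0.59, or 9.91-fold, in wild type (limma, adjusted p = 0.00515), with adjusted p = 0.0525 without wild type air array A. In cells labelled ixr1 null the difference was 2.16 ± 0.60 with adjusted p = 0.0511, just short of the threshold. None of the other 8 genes of the complex passed in either genotype. These are the core subunit genes COR1 and QCR2, the catalytic subunit genes RIP1, of the Rieske iron-sulfur protein, and CYT1, of the cytochrome that hands electrons to cytochrome c, and the small subunit genes QCR6, QCR7, QCR8 and QCR9. QCR8, whose product lies close to cytochrome b, read 2.69 and 1.85 in wild type hypoxia, against 0.630 and 0.812 in wild type air, while the labelled ixr1 null readings were 1.10 and 1.47 in hypoxia, against 1.48 and 1.49 in air. QCR7 read 1.24 and 1.33 in wild type hypoxia, against 0.527 and 0.587 in wild type air, while the labelled ixr1 null readings were 1.05 and 0.994 in hypoxia, against 1.12 and 1.05 in air. The wild type arrays of QCR7 and QCR8 did not overlap, but their adjusted p-values were 0.154 and 0.209. CYT1 read 0.197 and 0.774 in wild type hypoxia, against 0.208 and 0.751 in wild type air, so that its arrays A and B differed far more than the conditions did. On the arrays labelled ixr1 null CYT1 read 0.522 and 0.605 in hypoxia, against 0.458 and 0.815 in air.

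In complex IV no gene passed in either genotype, and 2 of 7 had an unadjusted p under 0.05 in cells labelled ixr1 null and 0 of 6 in wild type, beside 23.5% and 22.6% of all probes (limma). The median difference was -0.02 over the 6 genes tested in wild type. In cells labelled ixr1 null all 7 differences lay below 0, between -1.83 and -0.85, with a median of -1.05. All 7 were also below 0 on the deposited scale and with arrays centred on their medians, and 5 of 7 with the floor, the other 2 being at the floor. The scaling moved the median of all probes in this comparison from the -0.20 above to -0.03 on the deposited scale, and the median of complex IV there was -0.87. The smallest adjusted p-values were those of COX6, at 0.0563, and COX8, at 0.0979. COX6, which encodes a nuclear subunit of the oxidase, read 0.281 and 0.254 in labelled ixr1 null hypoxia, against 0.751 and 0.682 in labelled ixr1 null air. In wild type COX6 read 0.402 and 0.376 in hypoxia, against 0.379 and 0.411 in air. COX4, which encodes a zinc-binding subunit needed for assembly, read 0.949 and 0.551 in labelled ixr1 null hypoxia, against 1.53 and 1.15 in labelled ixr1 null air, while the wild type readings were 0.668 and 1.09 in hypoxia, against 0.985 and 1.35 in air. Both genes read lower in hypoxia than in air on the arrays labelled ixr1 null, while in wild type the COX6 groups overlapped, and those of COX4 overlapped as deposited but lay apart, with hypoxia lower, on normalized values. COX7 and COX8, of small membrane subunits, were at 0 on 2 and 3 arrays. Elsewhere COX7 lay between percentiles 9.5 and 59.7 of positive readings on its array, and COX8 between 14.1 and 48.1. COX7 read 0.202 and 0.111 in wild type hypoxia, against 0.0637 and 0.0472 in wild type air, while the labelled ixr1 null readings were 0.117 and 0.334 in hypoxia, against 0.155 and 0.514 in air. COX8 read 0.0958 and 0.158 in labelled ixr1 null hypoxia, against 0.253 and 0.234 in labelled ixr1 null air, while the wild type readings were 0.141 and 0.143 in hypoxia, against 0 and 0.287 in air, where the 0 kept it out of the test.

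Complex II and the NADH dehydrogenases had no gene past the threshold. SDH1, which encodes the flavoprotein that oxidises succinate, read 3.14 and 1.42 in wild type hypoxia, against 0.914 and 0.562 in wild type air, while the labelled ixr1 null readings were 2.07 and 1.51 in hypoxia, against 1.38 and 0.889 in air. Its hypoxia readings were above its air readings in both genotypes, with adjusted p = 0.168 in wild type (limma, 1.44 ± 0.58) and 0.433 in cells labelled ixr1 null (0.88 ± 0.59). SDH3, of a membrane anchor, read 19.9 and 15.5 in wild type hypoxia, against 17.8 and 17.8 in wild type air, while the labelled ixr1 null readings were 8.71 and 9.51 in hypoxia, against 20.9 and 19.6 in air. The readings in labelled ixr1 null hypoxia were the lowest of the 12 arrays (limma, -1.30 ± 0.51 against air, adjusted p = 0.154), and the reading on labelled ixr1 null air array B lay within 10% of the brightest value of that array. SDH4, of the other anchor, read 0.672 and 0.686 in wild type hypoxia, against 0.702 and 0.490 in wild type air, while the labelled ixr1 null readings were 0.896 and 1.14 in hypoxia, against 0.907 and 1.04 in air. SDH3 and SDH4 have close relatives in the genome, SHH3 and SHH4, and without probe sequences in the sources used here, how far such pairs share signal is not known.

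NDI1 encodes the NADH dehydrogenase that faces the matrix. It read 0.323 and 1.11 in labelled ixr1 null hypoxia, against 0.0107 and 0.196 in labelled ixr1 null air, while the wild type readings were 0.185 and 0.198 in hypoxia, against 0.0378 and 0.0705 in air. Its hypoxia readings lay above its air readings in both genotypes, by 4.04 ± 1.29 in cells labelled ixr1 null (limma, adjusted p = 0.086) and 1.60 ± 1.25 in wild type (adjusted p = 0.542). NDE1 and NDE2 encode the enzymes that face the intermembrane space, and their probes, like those of the pair above, may share signal. NDE1 read 0.0149 and 0.0934 in wild type hypoxia, against 0.0614 and 0.0353 in wild type air, while the labelled ixr1 null readings were 0.0954 and 0.116 in hypoxia, against 0.0885 and 0.0382 in air. NDE2 read 0.338 and 0.803 in wild type hypoxia, against 0.691 and 0.0719 in wild type air, while the labelled ixr1 null readings were 0.343 and 0.723 in hypoxia, against 0.374 and 0.386 in air. The NDE2 readings of hypoxia and air overlapped in both genotypes, and its differences did not pass in either.

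The next question was whether the effect of overnight hypoxia differed between the genotypes. No gene of the 35 tested passed the test of that difference, beside 0.145% of all probes tested, and 3 (8.57%) had an unadjusted p under 0.05, beside 15.3% of all probes (limma interaction). The point estimates leaned one way: 28 of the 35 (80%) lay below 0, meaning a lower hypoxia over air ratio in cells labelled ixr1 null, beside 57.4% of all probes, and their median was -1.10, beside -0.24. The lean was found in complex III, with 8 of 9 genes below 0 and a median of -1.25, in complex IV, with 6 of 6 and -1.13, and in the ATP synthase, with 9 of 11 and -1.10. In complex II it was 2 of 4 with a median of -0.26, and among the NADH dehydrogenases 1 of 3 with 0.49. On the deposited scale the median of the 35 genes was -1.11 with 31 below 0, with arrays centred on their medians -1.13 with 31 below 0, and with the floor -0.48 with 27 of 38 below 0. Complex II had 4 of 4 genes below 0 on the deposited scale and with centred arrays. The genes share arrays, so a shift of the arrays would move them together, and the part of such a shift in this pattern was not tested.

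The differences between genotypes were furthest from 0 for INH1 and ATP1. INH1 had a fall that was larger in cells labelled ixr1 null, by -2.83 ± 0.64 (limma interaction, adjusted p = 0.0942). That p was 0.044 when dim probes were left out, 0.0483 when only the groups compared entered the fit, and 0.0522 with the letter as a block, and it ran from 0.115 to 0.405 when 1 array was left out and up to 0.818, under the floor, over all alternatives. ATP1 had a rise that was larger in cells labelled ixr1 null, by 2.71 ± 0.88 (limma interaction, adjusted p = 0.192). COX6 came next in p, at -1.66 ± 0.73 (limma interaction, adjusted p = 0.322). Across the 35 genes the hypoxia minus air differences of the 2 genotypes had a Pearson correlation of 0.815, and across all 4844 probes tested in both it was 0.653. These are descriptions across genes that share their arrays, and genes are not replicates. None of the 35 genes differed by over 16-fold in the same direction in both genotypes, as 116 of the 4844 probes did.

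**Figure D3:**
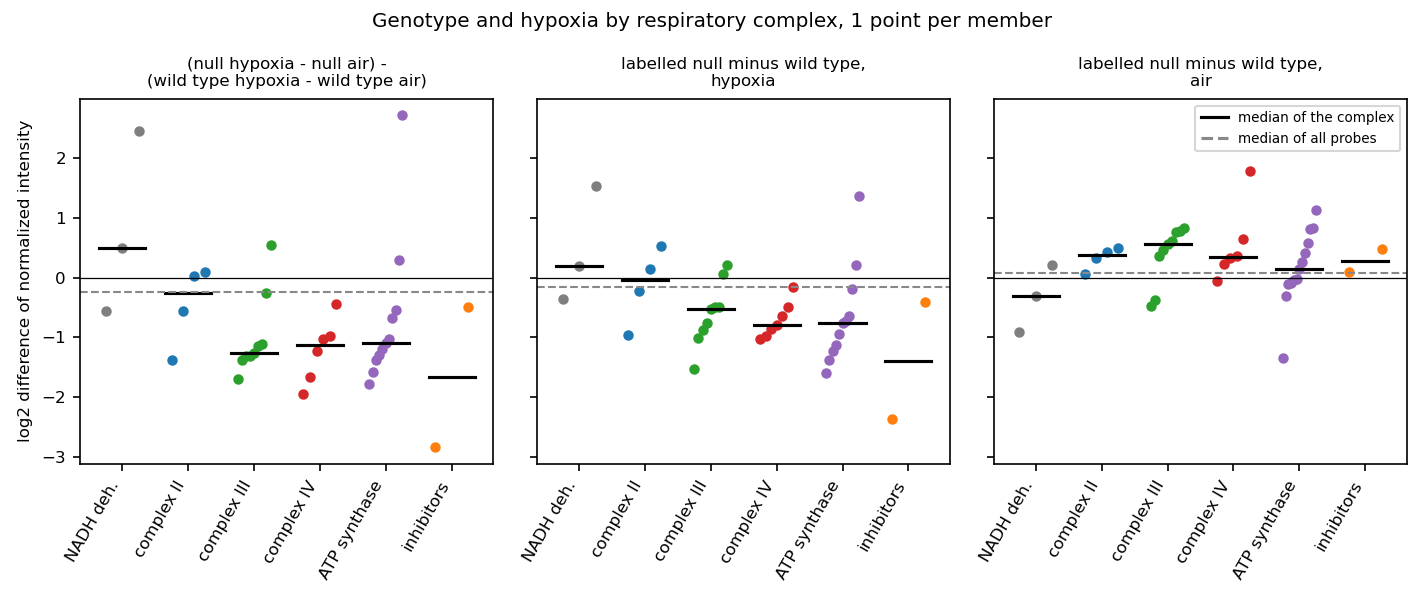
Each point is 1 gene, grouped by complex, as a log2 difference of the quantile normalized signal. The panels show the hypoxia minus air difference of cells labelled ixr1 null minus that of wild type, then cells labelled ixr1 null minus wild type in hypoxia and in air, with black marks for the median of a complex and a dashed line for that of all probes. In hypoxia all 7 points of complex IV, 7 of 9 of complex III and 9 of 11 of the ATP synthase lie below 0, and in air 26 of the 37 points tested lie above 0, with no point past an adjusted p of 0.05 in any panel.

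Within hypoxia 0 of 36 genes passed between the genotypes, beside 0.279% of all probes tested, and 4 (11.1%) had an unadjusted p under 0.05, beside 14.3% of all probes (limma). These were INH1 (-2.36 ± 0.46, adjusted p = 0.0737), ATP3 (-1.59, adjusted p = 0.254), QCR10 (-1.52, adjusted p = 0.296) and ATP5 (-1.23, adjusted p = 0.301), all lower on the arrays labelled ixr1 null. The INH1 value rests on dim readings and was -1.35 on the deposited scale (adjusted p = 0.337), -1.59 with centred arrays (0.469) and 0 under the floor (1). Of the 36 genes 28 (77.8%) lay below 0, beside 56.1% of all probes, with a median of -0.64, beside -0.16. The 2 arrays labelled ixr1 null lay wholly below the 2 wild type arrays for 18 of 36 genes (50%), beside 31.3% of all probes, and wholly above for 4 (11.1%), beside 22.9%. The level of this shift moved with the scaling: on the deposited scale the median of the genes was -0.31 and that of all probes 0.21, with 27 genes below 0. Complex IV had 7 of 7 genes below 0 with a median of -0.80 on the main scale, 6 of 7 with -0.35 on the deposited scale, and 4 of 7 with -0.02 under the floor, where the median of all 38 genes was -0.23 and that of all probes 0.

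In air 0 of 37 genes passed between the genotypes, beside 0% of all probes tested, and 1 (2.7%) had an unadjusted p under 0.05, beside 7.57% of all probes (limma). That gene was COX7 (1.79 ± 0.72, adjusted p = 0.614). Of the 37 genes 26 lay above 0 and 11 (29.7%) below, beside 45.2% of all probes below 0, and their median was 0.34, beside 0.08. On normalized values the arrays labelled ixr1 null lay wholly above the wild type arrays for 16 of 37 genes (43.2%), beside 25.1% of all probes, and wholly below for 2 (5.41%), beside 21.6%. Among the 16 were RIP1, at 1.22 and 1.21 in labelled ixr1 null air, against 0.671 and 0.686 in wild type air, and QCR8, at 1.48 and 1.49, against 0.630 and 0.812. ATP1 was among the 2 genes wholly below, at 0.190 and 0.247, against 0.619 and 0.267 (limma, -1.34 ± 0.63, adjusted p = 0.691). On the deposited scale the median of the 37 genes was 0.63, beside 0.39 for all probes. The medians thus lay above wild type in air and below it in hypoxia, and these estimates together make up the interaction above.

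The nitrogen shift asked whether the changes of overnight hypoxia were present after 3 hours. In wild type 0 of 35 genes passed against air, beside 0.749% of all probes tested, and 7 (20%) had an unadjusted p under 0.05, beside 15.8% of all probes (limma). The genes nearest the threshold were COX7, at 0.304 and 0.353 after the shift, against 0.0637 and 0.0472 in air (2.56 ± 0.72, limma, adjusted p = 0.141), and COX9, of another small oxidase subunit, at 1.25 and 1.33 after the shift, against 0.337 and 0.435 in air (1.91 ± 0.58, adjusted p = 0.162). For both genes the shift arrays lay above the air arrays. The genes that moved overnight read as follows after the shift. ATP5 read 0.153 and 0.266, ATP1 0.263 and 0.159, and QCR10 0.177 and 0.434, and of these ATP5 and QCR10 overlapped their wild type air readings while ATP1 lay below its own as deposited and overlapped on normalized values. INH1 read 1.91 and 2.81, and ATP15 1.30 and 2.44, above their air readings, with adjusted p = 0.26 and 0.265. ATP20 read 0 and 0.571.

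The other genes that passed in some comparison read as follows after the shift. ATP5 read 0 and 0.0599 in labelled ixr1 null, where ATP15 read 0.134 and 0.878 and ATP20 0 and 0.330. ATP3 read 2.91 and 1.61 in wild type, and ATP16 1.18 and 1.05. Both ATP15 and ATP20 read lower on array A than on array B on the arrays labelled ixr1 null.

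Among the genes of the chain, SDH1 read 1.01 and 2.31 after the shift in labelled ixr1 null and 1.36 and 1.62 in wild type. SDH3 read 22.4 and 25.4 in labelled ixr1 null and 12.2 and 24.0 in wild type, and SDH4 0.709 and 0.551 and 0.317 and 0.933, in the same order. NDE2 read 1.79 and 0.180 in labelled ixr1 null and 0.978 and 0.269 in wild type. In these 4 genes arrays A and B of wild type differed by little for SDH1 and by more for the others. QCR7 read 0.364 and 0.431 in labelled ixr1 null and 0.507 and 0.823 in wild type, QCR8 3.75 and 0.797 and 3.05 and 1.29, and CYT1 0.227 and 0.0401 and 0.177 and 0.299. COX4 read 2.57 and 0.503 in labelled ixr1 null and 1.08 and 0.599 in wild type. QCR8 and COX4 were higher on array A in both genotypes. Of the ATP synthase and its inhibitors, ATP2 read 1.06 and 3.16 in labelled ixr1 null and 0.610 and 2.68 in wild type, and STF1 1.82 and 1.12 and 1.44 and 0.716.

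Set against overnight hypoxia, the shift arrays of wild type differed in 5 of 36 genes, which is 13.9%, beside 9.03% of all probes tested. All 5 had also passed between hypoxia and air, a comparison that shares the hypoxia arrays. QCR10 was lower after the shift by -3.69 ± 0.59 (12.9-fold, limma, adjusted p = 0.00498, and 0.0527 without wild type hypoxia array A), ATP1 by -3.79 ± 0.63 (13.8-fold, adjusted p = 0.00434) and ATP5 by -4.09 ± 0.49 (17-fold, adjusted p = 0.00115). ATP15 was higher after the shift by 6.04 ± 0.82 (limma, adjusted p = 0.00208) and INH1 by 3.83 ± 0.45 (14.2-fold, adjusted p = 0.00083). The fold of ATP15 rests on the dim hypoxia readings above and ran from 2.13 to 7.09 on the log2 scale over the alternatives. INH1 and ATP15 read higher on both shift arrays than on both hypoxia arrays, and QCR10, ATP1 and ATP5 lower.

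In cells labelled ixr1 null, the zeros left 26 genes to test against air and 25 against hypoxia. Against air 0 of 26 passed, beside 1.97% of all probes tested, and 1 (3.85%) had an unadjusted p under 0.05, beside 14.5% of all probes (limma), which was ATP1 (2.27 ± 0.59, adjusted p = 0.084). Against hypoxia 4 of 25 passed, which is 16%, beside 20.2% of all probes tested. ATP1 read 1.22 and 0.344 after the shift, against the 7.50 and 6.96 of hypoxia, and was lower by -3.27 ± 0.59 (9.65-fold, limma, adjusted p = 0.00352). ATP3 read 5.26 and 2.10 after the shift, against 0.535 and 0.567 in hypoxia, and was higher by 2.94 ± 0.53 (7.67-fold, limma, adjusted p = 0.00314). INH1 read 1.06 and 2.01 after the shift, against 0.0701 and 0.0807 in hypoxia, and was higher by 5.55 ± 0.41 (46.9-fold, limma, adjusted p = 1.56e-05). Both hypoxia readings of INH1 lay under the 10th percentile of their array. Its difference ran from 1.86 to 5.79 on the log2 scale over the alternatives. For ATP1, ATP3 and INH1 the shift and hypoxia readings lay apart. ATP16 read 3.16 and 1.08 after the shift, against 0.700 and 0.750 in hypoxia (1.72 ± 0.49, limma, adjusted p = 0.0333). The ATP16 call was lost under 8 of 12 alternatives, among them the deposited scale, where adjusted p = 0.12, leaving out shift array A (0.274) and leaving out hypoxia array A or B (0.103 and 0.138). The medians of all probes in these tests were 0.30 against air and 0.61 against hypoxia on the main scale. Those of the genes tested were 0.03 and 0.59. These signs depended on the scaling. On the deposited scale the medians of all probes were -0.292 and -0.135, and those of the genes -0.358 and 0.237. With centred arrays they were -0.784 and -0.532 for all probes, and -0.85 and -0.159 for the genes.

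Genes at 0 on both arrays labelled ixr1 null of the shift were NDI1, NDE1, QCR10, COX7 and COX8. On the wild type shift arrays NDI1 read 0.0179 and 0.150, NDE1 0.0898 and 0, QCR10 0.177 and 0.434, COX7 0.304 and 0.353 and COX8 0.143 and 0.142. Nothing is stated of a difference there, because the zeros of the arrays labelled ixr1 null run through the whole array. Between the genotypes after the shift 0 of 26 genes passed, beside 0% of all probes tested, and 1 (3.85%), ATP1, had an unadjusted p under 0.05, beside 7.62% of all probes (limma, 1.88 ± 0.59, adjusted p = 0.493). The interaction of genotype with the shift passed for 0 of 26 genes, beside 0% of all probes tested, with 2 (7.69%) at an unadjusted p under 0.05, beside 9.78% of all probes (limma). ATP1 had the smallest of these p-values, with an estimate of 3.22 ± 0.84 and an adjusted p of 0.216, or 0.0446 with the letter as a block and between 0.0446 and 0.931 over all alternatives.

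The A and B arrays of the shift differed more than those of the other conditions. The median absolute log2 difference between A and B over the genes was 1.02 in labelled ixr1 null shift and 0.922 in wild type shift, against 0.438 and 0.286 in hypoxia and 0.352 and 0.479 in air, in the same order of genotypes. The genes shared this pattern with all probes, for which the shift values were 0.923 and 0.987. On normalized values the direction was largely the same in both genotypes: of 26 genes 22 (84.6%) had the same sign, beside 72.5% of all probes. The correlation across the 26 genes was 0.756, beside 0.648 across 2231 probes. Labelled ixr1 null shift array A held 3489 zeros when it was normalized, which limits the size and sign of these differences. The zeros entered the ranking, so dim positive readings of that array were raised. SDH2 read 0.0502 there and became -1.31 on the normalized log2 scale, while its 0.245 on wild type shift array A became -1.81. Its A minus B difference in labelled ixr1 null below is thus smaller in size than as deposited. As deposited, QCR7 read 0.364 and 0.431 in labelled ixr1 null and 0.507 and 0.823 in wild type, lower on array A in both. RIP1 was higher on array A than on array B by 2.42 in labelled ixr1 null and 1.62 in wild type, and NDE2 by 2.71 and 1.92. ATP2 was lower on array A than on array B by -1.22 in labelled ixr1 null and -1.95 in wild type, and SDH2, of the iron-sulfur subunit of complex II, by -1.30 and -1.69. RIP1 read 2.49 and 0.355 in labelled ixr1 null and 0.758 and 0.261 in wild type, and SDH2 read 0.0502 and 0.881 in labelled ixr1 null and 0.245 and 0.839 in wild type. The groups of 2 shift arrays therefore hold 2 different readings of the same genes, and the spread within them is larger than in air or in hypoxia. The main fit takes 1 spread per gene from all 6 groups. With only the groups compared, calls among all probes went from 593 to 833 in wild type hypoxia against air. They went from 660 to 582 in labelled ixr1 null hypoxia against air. For the shift against hypoxia they went from 442 to 206 in wild type and from 450 to 237 in labelled ixr1 null.

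**Figure D4:**
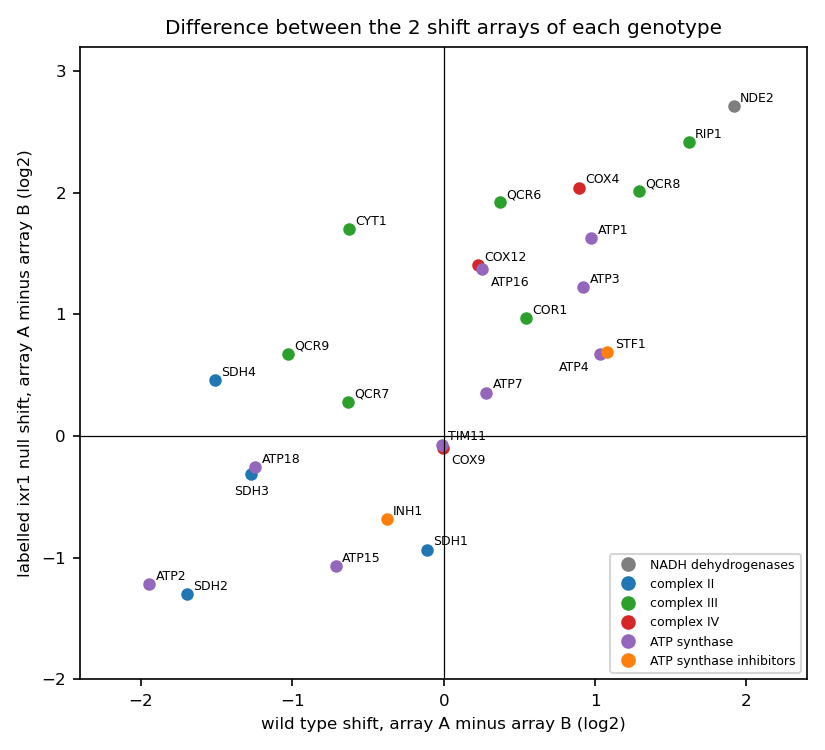
Difference between shift array A and shift array B of each gene, as log2 of the quantile normalized signal, in cells labelled ixr1 null (vertical axis) against wild type (horizontal axis), for the 26 genes with values on all 4 shift arrays, coloured by complex. Points run from SDH2 and ATP2 at the lower left to RIP1 and NDE2 at the upper right. On these normalized values 22 of 26 have the same sign in both genotypes, the exceptions being CYT1, SDH4, QCR7 and QCR9. As deposited, QCR7 is lower on array A in both genotypes.

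Genes that serve the same enzymes but are not subunits were read from further lists, again on overnight hypoxia against air, where 12% of all probes tested passed in cells labelled ixr1 null and 11.9% in wild type. The lists are small, and nothing is read from how their shares compare with these. In wild type 0 of 24 assembly factor genes of complexes II to IV rose and 1 fell, which was CBP3, a complex III assembly factor (-6.34 ± 1.17, limma, adjusted p = 0.00621). It read 0.260 and 0.0590 in wild type hypoxia, against 8.13 and 7.43 in wild type air. On the arrays labelled ixr1 null CBP3 read 0.0469 and 0, against 13.0 and 10.2, and was not tested. The hypoxia arrays lay far below the air arrays in both genotypes. In cells labelled ixr1 null 0 of 26 assembly genes rose and 1 fell, which was SCO1, of copper delivery to complex IV (-2.09 ± 0.53, limma, adjusted p = 0.0297). The next in p were COX14, of complex IV assembly, in wild type (1.53 ± 0.53, adjusted p = 0.103) and CBP4, of complex III assembly, in cells labelled ixr1 null (2.59 ± 0.69, adjusted p = 0.0603).

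Among genes for assembly and expression of the ATP synthase, NCA3 fell in wild type (-2.38 ± 0.60, limma, adjusted p = 0.0309), with 0 of 10 risen, and ATP23 rose in cells labelled ixr1 null (4.07 ± 0.66, adjusted p = 0.00878), with 0 of 13 fallen. ATP23, which encodes the protease that processes a mitochondrially encoded subunit, read 1.35 and 1.37 in labelled ixr1 null hypoxia, against 0.153 and 0.0599 in labelled ixr1 null air. In wild type ATP23 read 4.62 and 2.63 in hypoxia, against 0.0857 and 0 in air, and the 0 kept it out of the test. Its hypoxia readings lay above its air readings in both genotypes. Of the ubiquinone synthesis genes none of 9 passed in wild type, and in cells labelled ixr1 null COQ1 rose (6.87 ± 1.36, limma, adjusted p = 0.015) and COQ5 fell (-1.82 ± 0.48, adjusted p = 0.0358) of 11. COQ1, of the first enzyme in making the ubiquinone side chain, read 4.72 and 5.20 in labelled ixr1 null hypoxia, against 0.0731 and 0.0461 in labelled ixr1 null air, while the wild type readings were 1.60 and 1.51 in hypoxia, against 0.640 and 0 in air. The dim air readings leave the size of the COQ1 rise unfixed.

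Of the adenine nucleotide and phosphate carriers, PET9, of the main ADP/ATP carrier, fell in wild type (-1.88 ± 0.49, limma, adjusted p = 0.0346), 1 of 5 tested, and 0 of 5 passed in cells labelled ixr1 null. In wild type 4 of the 5 had an unadjusted p under 0.05, beside 22.6% of all probes (limma), with 3 below 0 and 2 above. In cells labelled ixr1 null it was 1 of 5, beside 23.5%. MIR1, also on the list, read 0.0854 and 0.173 in wild type hypoxia, against 2.11 and 1.52 in wild type air. Its labelled ixr1 null readings were 0.0203 and 0.360, against 0.529 and 0.505, and neither difference passed. On the arrays labelled ixr1 null PET9 read 0.332 and 0.353 in hypoxia, against 0.177 and 0.291 in air. The list also holds AAC3, which read higher in hypoxia than in air in both genotypes, as given above. AAC3 was not tested because of its zeros in air. Of the activators of respiratory genes, HAP2, of the Hap complex, fell in wild type (-2.58 ± 0.59, limma, adjusted p = 0.0157), 1 of 5, and 0 of 5 passed in cells labelled ixr1 null, where HAP1 had the smallest p (1.61 ± 0.57, adjusted p = 0.109). Other donors of electrons to the chain (5 genes) and the cytochrome c genes with COX5A, COX5B and CYC3 (5 tested in wild type and 4 in cells labelled ixr1 null) had 0 past the threshold in both genotypes and 0 with an unadjusted p under 0.05 (limma). A further list held 5 nuclear genes that were tested, STF2, SHH3, SHH4, RCF1 and RCF2, and ATP19, at 0 on most arrays and not tested. Of the 5, 0 passed in either genotype and 1 in each had an unadjusted p under 0.05 (limma). These were SHH4 in wild type (2.47 ± 0.76, adjusted p = 0.0654) and SHH3 in cells labelled ixr1 null (-2.44 ± 0.90, adjusted p = 0.134). As a comparison with another rotary ATPase, the vacuolar ATPase had 1 of 14 subunit genes (7.14%) past the threshold in each genotype, beside the 12% and 11.9% of all probes, VMA2 in wild type (-2.47 ± 0.52, limma, adjusted p = 0.0101) and VMA8 in cells labelled ixr1 null (-2.78 ± 0.50, adjusted p = 0.00531). VMA8 was also lower on the arrays labelled ixr1 null than in wild type within hypoxia, at 0.455 and 0.866, against 6.40 and 4.80 (-3.61 ± 0.51, limma, adjusted p = 0.0405).

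The further lists are given for the interaction as counts and medians, beside 57.4% below 0 and a median of -0.24 over all probes tested. All 9 ubiquinone synthesis genes tested lay below 0 with a median of -1.15, and 18 of 23 assembly factor genes with -0.99. Of STF2, SHH3, SHH4, RCF1 and RCF2, 4 of 5 lay below 0 with a median of -1.82. The cytochrome c genes with the COX5 pair had 3 of 4 below 0 and a median of -0.73. The vacuolar ATPase genes had 10 of 14 and -0.21, and the ATP synthase assembly genes 5 of 10 and -0.22, medians close to that of all probes. The other electron donors had 1 of 5 below 0 and a median of 0.27, the carriers 2 of 5 and 0.60, and the activators 2 of 5 and 1.41. Whether the lists differ from each other or from all probes was not tested. None of these lists held a gene past the threshold of that test (limma), and 0, 4, 2, 0, 3, 1, 0, 1 and 0 genes had an unadjusted p under 0.05, in the order given.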

How the data were processed

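RNA of the 12 samples was copied into 32P-labelled cDNA and hybridised to arrays, per the labels' protocols. The authors deposited 1 linear intensity value per open reading frame and array. The sources used here do not give the image software, background subtraction or scaling. The log2 medians of the arrays differed by up to 1.49, so the intensities were quantile normalized, zeros were set to missing and log2 was taken. A group-means model over all 12 arrays was fitted with limma 3.58.1 in R 4.3.3. Variances were moderated, p-values were adjusted by Benjamini-Hochberg over the probes tested in each comparison, and the threshold was 0.05. A probe was tested where both arrays of each group compared were above 0. The code was tested on simulated data. Symbols came from a RefSeq table, which matched 5571 probes and left 403 unmatched. The members and gene lists were chosen with earlier results of these data known. Values of every array were printed for genes past the threshold in any comparison, for the smallest p and the highest and lowest level in each complex, and for genes at 0 on both arrays of a group. The A minus B differences of the 2 genotypes had correlations of 0.257, 0.189 and 0.648 in air, overnight hypoxia and shift, so the letter was tried as a block. Between groups of unlike condition these correlations ran from -0.0562 to 0.298, so only the shift value stood out. Other alternatives were the deposited scale, centred arrays, a floor, a filter on dim probes, a fit to the groups compared alone, and leaving out arrays. Arrays carry no counts, so their number limits the precision.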

Additional observations from a re-analysis of the deposited data

How the results depend on the processing

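No direction reversed for the 19 gene results followed, and 181 of 208 alternatives kept the call. The number of genes called in wild type hypoxia against air was 6 and ran from 3 to 5 when 1 array was left out. In wild type shift against air it was 0, with 1 of 38 under the floor (COX9), beside 2.88% of all probes. In wild type shift against hypoxia it was 5, with 8 without the shift B arrays. In labelled ixr1 null hypoxia against air it was 4, with 7 of 33 when dim probes were left out, beside 24.9% of all probes then tested. In labelled ixr1 null shift against air it was 0, with 1 of 26 under the replicate block (ATP1), beside 3.95% of all probes. In labelled ixr1 null shift against hypoxia it was 4, with 12 without the shift B arrays and 3 to 7 when 1 array was left out. Between genotypes in hypoxia it was 0, with 2 of 38 under the floor (QCR10 and ATP5), beside 5.88% of all probes. For the interaction with hypoxia it was 0, with 1 under the floor (ATP5), 1 without dim probes and 1 when only the groups compared were fitted (INH1 in both). The shares of all probes there were 5.14%, 1.78% and 1.55%. For the interaction with the shift it was 0, with 1 of 26 under the replicate block (ATP1), beside 1.19% of all probes. The replicate block changed no other call that the text gives for these comparisons. It added NDI1 in labelled ixr1 null hypoxia against air (5 of 36 genes, beside 13% of all probes). It also added QCR6 in labelled ixr1 null shift against hypoxia (5 of 25 genes, beside 26.6%). Among all probes the calls and their range over the alternatives were 593 (357 to 833) for wild type hypoxia against air, 35 (6 to 669) for wild type shift against air, 442 (190 to 812) for wild type shift against hypoxia, 660 (388 to 790) for labelled ixr1 null hypoxia against air, 44 (9 to 592) and 450 (237 to 979) for labelled ixr1 null shift against air and against hypoxia, 15 (0 to 351) between genotypes in hypoxia, and 7 (0 to 307) for the interaction with hypoxia. Leaving out the shift B arrays leaves 1 shift array per genotype. It gave the upper end of these ranges in each comparison of the shift with air or hypoxia. Gene counts from shift fits that left 1 array in a group are therefore not given. The causes were not tested. Readings under the 10th percentile of an array, and the zeros of the arrays labelled ixr1 null of the shift, limit what can be said of dim genes.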
